A study of Rattus norvegicus with 24 samples.

Results

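The 38 genes described here encode the enzymes of glycolysis and the citric acid cycle, the pyruvate dehydrogenase complex with its kinases, lactate dehydrogenase, malic enzyme and a pair of lactate and pyruvate transporters. They were chosen by name, from a list of 40 symbols matched exactly to the gene names of 26641 named loci. The 2 symbols without an exact match, Idh3b and Pcx, stand in the files as Idh3B and Pc and are given apart. RNA was measured in 24 libraries from 12 adult male Sprague-Dawley rats, 1 library from each of 2 regions, the cortex around the lesion (perilesional) and the thalamus on its side (ipsilateral). Of these rats, 6 had a traumatic brain injury (TBI) by lateral fluid percussion, a pressure pulse onto the exposed dura, and 6 were sham-operated, with anaesthesia and surgery but no impact. Tissue was taken 3 months later, and the TBI rats sequenced were those in which magnetic resonance imaging had shown an enhanced signal around the lesion, so they stand for injury with lasting perilesional inflammation. Each region was dissected as pieces of tissue, so in these data fewer cells of a type and less RNA per cell cannot be told apart.

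Glycolysis splits glucose into pyruvate in the cytosol. Pyruvate is either reduced to lactate or carried into mitochondria, where the pyruvate dehydrogenase complex turns it into acetyl-CoA for the citric acid cycle. Many steps have several isozymes that brain cells use to different degrees. Enolase 2 (Eno2) and the monocarboxylate transporter Slc16a7 are best known from neurons, aldolase C (Aldoc) from astrocytes, and Slc16a1 from endothelium and glia. The ATP-forming succinyl-CoA ligase subunit Sucla2 is held to be the neuronal alternative to the GTP-forming subunit Suclg2. Hexokinase 1 is the main hexokinase of the brain, and hexokinases 2 and 3 are better known from muscle and from myeloid cells.

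Promoters are shown for Hk2, Slc16a1 and Slc16a7, the members with a difference between regions or between paired isozymes that the results below turn on. They are the 300 bases from 250 before to 50 after the annotated start in RefSeq, build GRCr8, 5′ to 3′ on the strand of the gene. Capitals mark ACGTG or GCGTG on either strand, cores of the element bound by hypoxia-inducible factors. Matches may share letters, and CACGTG counts for both strands.
Hk2, chr4:116841226-116841525, minus strand: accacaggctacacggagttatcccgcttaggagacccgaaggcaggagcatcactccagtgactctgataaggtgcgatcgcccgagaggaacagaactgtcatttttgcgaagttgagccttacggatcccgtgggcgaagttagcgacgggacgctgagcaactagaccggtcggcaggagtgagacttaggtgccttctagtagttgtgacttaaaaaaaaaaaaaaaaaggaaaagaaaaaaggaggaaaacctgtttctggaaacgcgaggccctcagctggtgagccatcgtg
Slc16a1, chr2:194812410-194812709, plus strand: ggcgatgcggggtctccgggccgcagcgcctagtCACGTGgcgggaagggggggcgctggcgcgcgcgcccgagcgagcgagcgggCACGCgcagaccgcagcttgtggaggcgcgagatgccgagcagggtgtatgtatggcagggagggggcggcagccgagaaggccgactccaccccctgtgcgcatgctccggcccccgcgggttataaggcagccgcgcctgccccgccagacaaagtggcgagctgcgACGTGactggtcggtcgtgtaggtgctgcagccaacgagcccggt
Slc16a7, chr7:63040349-63040648, minus strand: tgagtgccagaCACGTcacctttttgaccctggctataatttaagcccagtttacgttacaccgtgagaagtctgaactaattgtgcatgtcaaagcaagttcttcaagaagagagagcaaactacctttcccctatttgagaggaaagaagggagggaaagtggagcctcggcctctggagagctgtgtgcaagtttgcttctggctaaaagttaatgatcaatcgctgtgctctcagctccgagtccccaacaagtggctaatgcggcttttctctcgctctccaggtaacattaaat

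The Slc16a1 window held 3 matches to ACGTG and 1 to GCGTG, the Slc16a7 window held 1 match to ACGTG, and the Hk2 window held 0 of either. Of the 38 members, 36 had a promoter in the RefSeq table. ACGTG lay in 16 of these 36, or 44.4%, against 19.3% of 33469 promoters of the same length, and GCGTG lay in 18 of 36, or 50%, against 29.7%. The members' windows had a median GC content of 62.3%, and all windows 51.7%. AAGGTCA, a site of oestrogen-related receptors, lay in 1 member window, that of Tpi1 (2.78%), against 4.61% of all windows. These matches are a description of letters and were not tested.

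The deposited values, called normalized counts here, are the fragments of a locus scaled by a factor particular to the library. Each library held between 30568927 and 54608922 fragments, recovered from the step between low values. Within a region, limma compared TBI with sham rats on the scale log2(normalized count + 1), and a gene was called higher or lower at a Benjamini-Hochberg adjusted p under 0.05 over all loci tested. Libraries differed in choroid plexus, the tissue lining the ventricles. The summed normalized count of 7 choroid plexus markers lay between 486 and 3019 in 18 libraries. It was 11527, 24101 and 33162 in the cortex of sham rats 34 and 26 and TBI rat 45, and 68610, 108623 and 264879 in the thalamus of sham rats 34 and 50 and TBI rat 45. The counts of members called in each comparison are therefore also given without these 6 libraries, a choice made after the data were seen. In sham rats 6 of 7 cortex markers were lower and 7 of 7 thalamus markers higher in the thalamus, and the cortex marker Rorb was not called (0.08). With injury, 5 of 7 thalamus markers were lower in the thalamus and 0 higher, against 20.9% and 14.5% of all loci. Their summed normalized count there was 83756 to 113384 in sham and 65461 to 80196 in TBI rats. In the cortex 3 of 7 cortex markers were lower and 0 higher, against 14.9% and 14.3% of all loci. Their sums there were 70049 to 75006 in sham and 62089 to 69054 in TBI rats. What part this had in the results below was not tested. Several glycolytic genes have processed pseudogenes, and how reads that matched more than 1 place were counted is not given in the sources used here, so their levels carry that uncertainty.

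Together the members took a small share of each library, with lower medians in TBI rats. In the cortex they held a median of 1.25% of normalized counts in sham rats (1.16% to 1.27%) and 1.17% in TBI rats (1.09% to 1.22%). In the thalamus they held 1.41% in sham rats (1.35% to 1.51%) and 1.26% in TBI rats (1.16% to 1.36%). The groups overlapped in both regions, and the shares were not tested.

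Of the 38 members, 37 passed the minimum mean of 10 and Hk3 did not. In the perilesional cortex, 20 of 37 were called lower and 2 higher, Hk2 and Pdk4, while 15 were not called. Of all 15493 loci tested there, 14.9% were called lower and 14.3% higher. In the ipsilateral thalamus, 25 of 37 were called lower, 4 were called higher, Hk2, Pdk4, Slc16a1 and Suclg2, and 8 were not called. Of all 15564 loci tested there, 20.9% were called lower and 14.5% higher. The median log2 fold change of the members was -0.16 in the cortex and -0.23 in the thalamus, against -0.01 and -0.02 over all loci. Lower calls covered 16 members in both regions, 4 in the cortex alone (Aldoc, Slc16a7, Pdk1 and Me1) and 9 in the thalamus alone (Hk1, Gpi, Aldoa, Tpi1, Gapdh, Eno1, Idh3g, Ogdh and Suclg1), and 0 members were called in opposite directions. A call in 1 region alone does not show that the regions differ.

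Abundant loci were called lower more often than others. Among loci with a mean of at least 1000, 25.5% were called lower and 8.08% higher in the cortex, and 34% lower and 11.2% higher in the thalamus. Of the 35 members at that level in the cortex, 20 were called lower and 0 higher. Of the 34 in the thalamus, 25 were called lower and 2 higher. In the cortex, 8 of the 37 members had every TBI value below every sham value and 2 the reverse, against 5.45% and 7.02% of all loci. In the thalamus, 17 had every TBI value below every sham value and 2 the reverse, against 10.7% and 7.46% of all loci.

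**Figure D1:**
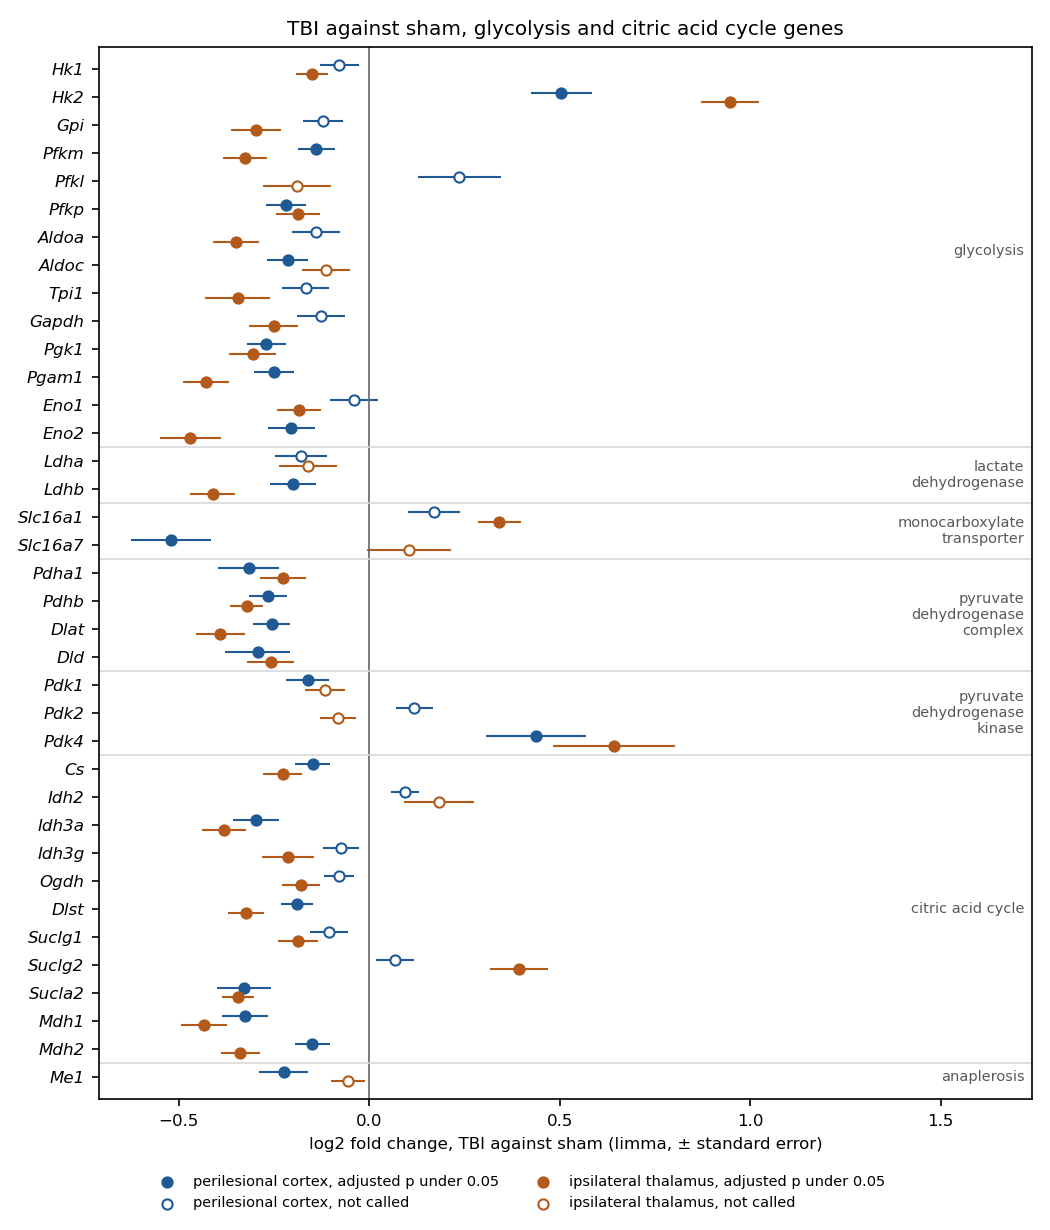
Log2 fold change of TBI against sham (x axis) for the 37 members tested, ordered by role (y axis), in the perilesional cortex (blue) and the ipsilateral thalamus (brown). Lines are standard errors from limma, and filled points had an adjusted p under 0.05. Most points lie left of 0, and Hk2 lies furthest right, at 0.50 in the cortex and 0.95 in the thalamus.

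These counts changed with scaling and on leaving out the libraries high in choroid plexus, which also leaves fewer libraries. With upper quartile scaling, members in the cortex were 12 lower and 6 higher, against 1248 lower and 2900 higher of all 15494 loci. In the thalamus they were 17 lower and 4 higher, against 1990 lower and 2988 higher of 15567. With TMM scaling the thalamus had 19 members lower and 4 higher, against 2357 lower and 2796 higher of 15565 loci. EdgeR on recovered fragments gave the same member counts, against 2300 lower and 2822 higher of 15564 loci. The lower share of all called loci moved from 50.9% to 30.1% in the cortex with upper quartile scaling, and in the thalamus from 59.0% to 45.7% with TMM, 39.98% with upper quartile scaling and 44.9% with edgeR. Without the 6 libraries high in choroid plexus, 8 members were lower in the cortex, Pgk1, Pgam1, Slc16a7, Pdhb, Dlat, Idh3a, Sucla2 and Mdh1, and Hk2 alone was higher. The median over all 37 members there was -0.14 (log2 fold change), from 9 libraries in place of 12. In the thalamus, 21 members were lower and 4 higher without the libraries high in choroid plexus. Calls over all loci fell too. In the cortex 939 of 15485 loci were then lower and 1223 higher, against 2308 and 2223 of 15493 with all 12 libraries. In the thalamus 2382 of 15525 were lower and 1859 higher, against 3257 and 2259 of 15564. The direction of a member turned only with upper quartile scaling, for Eno1 in the cortex (log2 fold change 0.02) and Me1 in the thalamus (0.01), neither called.

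Cell type markers moved in the same libraries. Of 12 neuronal markers, 9 were lower in the cortex and 10 in the thalamus, and 0 were higher. Their summed normalized count ranged from 414573 to 445999 in sham cortex and from 293290 to 386240 in TBI cortex. In the thalamus it ranged from 276645 to 327982 in sham and from 185617 to 233520 in TBI rats. Of 10 microglial markers, 9 were higher in the cortex and 10 in the thalamus, and 0 were lower. Their sum ranged from 12482 to 13503 in sham cortex, 18128 to 21555 in TBI cortex, 13897 to 18348 in sham thalamus and 28170 to 36896 in TBI thalamus. Of 9 astrocyte markers, 5 were higher in each region, with 1 lower in the cortex and 0 lower in the thalamus. Their sum ranged from 323755 to 350668 in sham cortex and 363699 to 412113 in TBI cortex, and from 229454 to 254683 in sham thalamus and 352632 to 414371 in TBI thalamus. Of the 7 oligodendrocyte markers matched, 3 were higher in the cortex and 0 were called in the thalamus. Their sums overlapped, from 128008 to 170712 in sham and 121854 to 164356 in TBI cortex, and from 403990 to 556939 in sham and 391643 to 522857 in TBI thalamus. Of 7 endothelial markers, 1 was higher in the cortex and 3 in the thalamus, with overlapping sums of 14502 to 17007 in sham and 15550 to 18022 in TBI cortex, and of 11069 to 14522 in sham and 12573 to 18362 in TBI thalamus. All markers of these 5 lists were above the level of 3 fragments in at least 1 library. The neuronal sum was lower, and the microglial and astrocyte sums higher, in every TBI library of both regions. Abundant markers weigh most in such a sum. The largest log2 fold change of an astrocyte marker was 2.26 in each region, while their medians were 0.28 in the cortex and 0.42 in the thalamus. The part of these cell types in the results below was not tested.

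Hexokinases start glycolysis by phosphorylating glucose, and they moved apart. Hk2 had normalized counts of 393 to 478 (median 460) in sham cortex and 533 to 727 (650) in TBI cortex. In the thalamus it had 467 to 602 (517) in sham and 900 to 1121 (988) in TBI rats. Neither region showed overlap between its groups. Hk2 was 1.42-fold higher in the cortex (log2 fold change 0.50 ± 0.08 SE, adjusted p = 0.000385) and 1.93-fold higher in the thalamus (0.95 ± 0.08, adjusted p = 8.57e-07). Its locus lies on chromosome 4 from 178237901 to 178288479, as the files list it, under a build for which the sources give 2 names. Hk1 had 14180 to 16594 (15607) in sham cortex against 13766 to 16427 (14439) in TBI cortex, and was not called there (-0.08 ± 0.05, adjusted p = 0.263). In the thalamus Hk1 fell from 12814 to 13841 (13515) in sham to 11612 to 12968 (11920) in TBI rats (-0.15 ± 0.04, adjusted p = 0.0121), a call that was lost with TMM and upper quartile scaling, with edgeR and without the libraries high in choroid plexus.

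Hk3, the hexokinase known from myeloid cells, was close to the limit of detection. It had 0.858 to 5.67 in sham cortex and 4.74 to 17.8 in TBI cortex, and 0 to 4.95 in sham thalamus and 5.50 to 20.7 in TBI thalamus. It was at or under 3 fragments in 3 of 6 sham cortex and 4 of 6 sham thalamus libraries, and in 0 TBI libraries. The groups overlapped in the cortex and did not in the thalamus. With no filter on low values, limma gave log2 fold changes of 1.51 ± 0.38 (adjusted p = 0.0107) in the cortex and 2.38 ± 0.49 (adjusted p = 0.00243) in the thalamus, which depend on the pseudocount at this level.

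The members that act after the hexokinases, from glucose phosphate isomerase to enolase, were lower or not called. Pyruvate kinase (Pkm), whose step forms pyruvate, is no member. Of the 14 glycolytic members tested, Hk1 and Hk2 included, 6 were lower in the cortex and 11 in the thalamus. Over all loci 14.9% and 20.9% were lower, and 25.5% and 34% of loci with a mean of at least 1000. Pgam1, phosphoglycerate mutase, had 19952 to 21797 (21325) in sham and 15563 to 19364 (17937) in TBI cortex, and 23912 to 26664 (25169) in sham and 16069 to 20556 (19215) in TBI thalamus. Its groups did not overlap in either region, and it was lower by -0.25 ± 0.05 (adjusted p = 0.00301) and -0.43 ± 0.06 (adjusted p = 0.000103). Pgk1, phosphoglycerate kinase, which forms the first ATP of the pathway, had 16506 to 19460 (18719) in sham and 14069 to 16410 (14999) in TBI cortex. It had 24361 to 28042 (25422) in sham and 18089 to 22355 (21283) in TBI thalamus. The groups were apart in both regions, with log2 fold changes of -0.27 ± 0.05 (adjusted p = 0.00155) and -0.31 ± 0.06 (adjusted p = 0.00144).

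Eno2, the neuronal enolase, had 17111 to 19439 (17561) in sham and 13347 to 17427 (15902) in TBI cortex, which overlapped. In the thalamus it had 17683 to 23974 (19895) in sham and 12109 to 16168 (14963) in TBI rats, with no overlap. It was lower by -0.20 ± 0.06 in the cortex (adjusted p = 0.0231) and by -0.47 ± 0.08 in the thalamus (adjusted p = 0.000512). The cortex call was lost without sham rat 26 (adjusted p = 0.0579) and without TBI rat 45 (0.0541), with upper quartile scaling, and without the libraries high in choroid plexus. The general enolase Eno1 had -0.04 ± 0.06 in the cortex (adjusted p = 0.667), and -0.18 ± 0.06 in the thalamus (adjusted p = 0.0223). The thalamus call was lost without TBI rat 24 (adjusted p = 0.0514), with TMM, upper quartile scaling and edgeR, and without the libraries high in choroid plexus.

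Gapdh, glyceraldehyde-3-phosphate dehydrogenase, served the study as reference transcript in its quantitative PCR of mRNA targets. It had 25533 to 29865 (29597) in sham and 21993 to 28289 (26710) in TBI cortex, and 30937 to 36430 (34869) in sham and 24919 to 31856 (28534) in TBI thalamus. It was not called in the cortex (-0.13 ± 0.06, adjusted p = 0.148) and was lower in the thalamus (-0.25 ± 0.06, adjusted p = 0.00746), except with upper quartile scaling. The groups overlapped in both regions. Sham thalamus had more Gapdh than sham cortex (0.26 ± 0.05, adjusted p = 0.000514) with no overlap.

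Of the other glycolytic members, aldolase A (Aldoa), triose phosphate isomerase (Tpi1) and glucose phosphate isomerase (Gpi) had log2 fold changes of -0.14, -0.17 and -0.12 in the cortex, where none was called, and they fell by 0.35, 0.35 and 0.30 in the thalamus with no overlap between groups. In the cortex Gpi was called lower without TBI rat 24 (adjusted p = 0.0271), and Tpi1 without sham rat 32, TBI rat 56 or TBI rat 63 (0.0390, 0.0463 and 0.0214). Aldoc fell in the cortex (-0.21 ± 0.05, adjusted p = 0.00825, no overlap, but 0.0539 with upper quartile scaling) and was not called in the thalamus (-0.11 ± 0.06, adjusted p = 0.177). Of the phosphofructokinases, which set the committed step, Pfkm fell by 0.14 in the cortex and 0.33 in the thalamus, and Pfkp by 0.22 and 0.19. Pfkl was called in neither region (0.24 ± 0.11, adjusted p = 0.112, and -0.19 ± 0.09, adjusted p = 0.116). It was called higher in the cortex with upper quartile scaling (0.30, adjusted p = 0.0498) and lower in the thalamus without TBI rat 52 (adjusted p = 0.0342). The cortex call of Pfkm was lost with upper quartile scaling, with no filter on low values, and on leaving out any of 9 libraries (sham rats 26, 34, 38, 50 and 55 and TBI rats 22, 24, 45 and 52), with adjusted p up to 0.0949. The thalamus call of Pfkp was lost without sham rat 50 (adjusted p = 0.0505), and with TMM, upper quartile scaling and edgeR. Without the libraries high in choroid plexus, Pfkm and Aldoc in the cortex and Pfkp in both regions were not called.

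Lactate dehydrogenase interconverts pyruvate and lactate. Ldhb had 22483 to 28607 (26571) in sham and 21033 to 24785 (22290) in TBI cortex, and 32778 to 39679 (36878) in sham and 25471 to 28389 (27328) in TBI thalamus. It was lower in the cortex with overlap (-0.20 ± 0.06, adjusted p = 0.0220) and in the thalamus without overlap (-0.41 ± 0.06, adjusted p = 0.000118). The cortex call was lost without sham rat 26, sham rat 34 or TBI rat 45 (adjusted p = 0.0524, 0.0533 and 0.0518), with upper quartile scaling and without the libraries high in choroid plexus. Ldha was called in neither region (-0.18 ± 0.07, adjusted p = 0.0620, or 0.0465 with TMM, and -0.16 ± 0.08, adjusted p = 0.115). It was called lower in the cortex without sham rat 32 or TBI rat 24 (adjusted p = 0.0464 and 0.0141), and in the thalamus without sham rat 38 or TBI rat 56 (0.0384 and 0.0417).

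The monocarboxylate transporters carry lactate, pyruvate and ketone bodies across cell membranes. Slc16a7 had 1889 to 2824 (2041) in sham and 1236 to 1767 (1550) in TBI cortex, and 527 to 827 (690) in sham and 627 to 923 (715) in TBI thalamus. Its groups were apart in the cortex, where it fell to 0.697 of sham (-0.52 ± 0.11, adjusted p = 0.00230), the largest fall among the members in that region. In the thalamus the groups overlapped and it was not called (0.10 ± 0.11, adjusted p = 0.49). Slc16a1 had 2271 to 3036 (2697) in sham and 2746 to 3388 (2942) in TBI cortex, and 4014 to 4637 (4439) in sham and 4900 to 6267 (5572) in TBI thalamus. It was higher in the thalamus with no overlap (0.34 ± 0.06, adjusted p = 0.000384) and was not called in the cortex (0.17 ± 0.07, adjusted p = 0.0743). It was called higher there with upper quartile scaling (0.23, adjusted p = 0.0294), with all 24 libraries in 1 fit (0.0489) and without sham rat 50 (0.0273). The locus of Slc16a7 lies on chromosome 7 from 68633366 to 68801080 and that of Slc16a1 on chromosome 2 from 226529273 to 226551075, as the files list them.

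**Figure D2:**
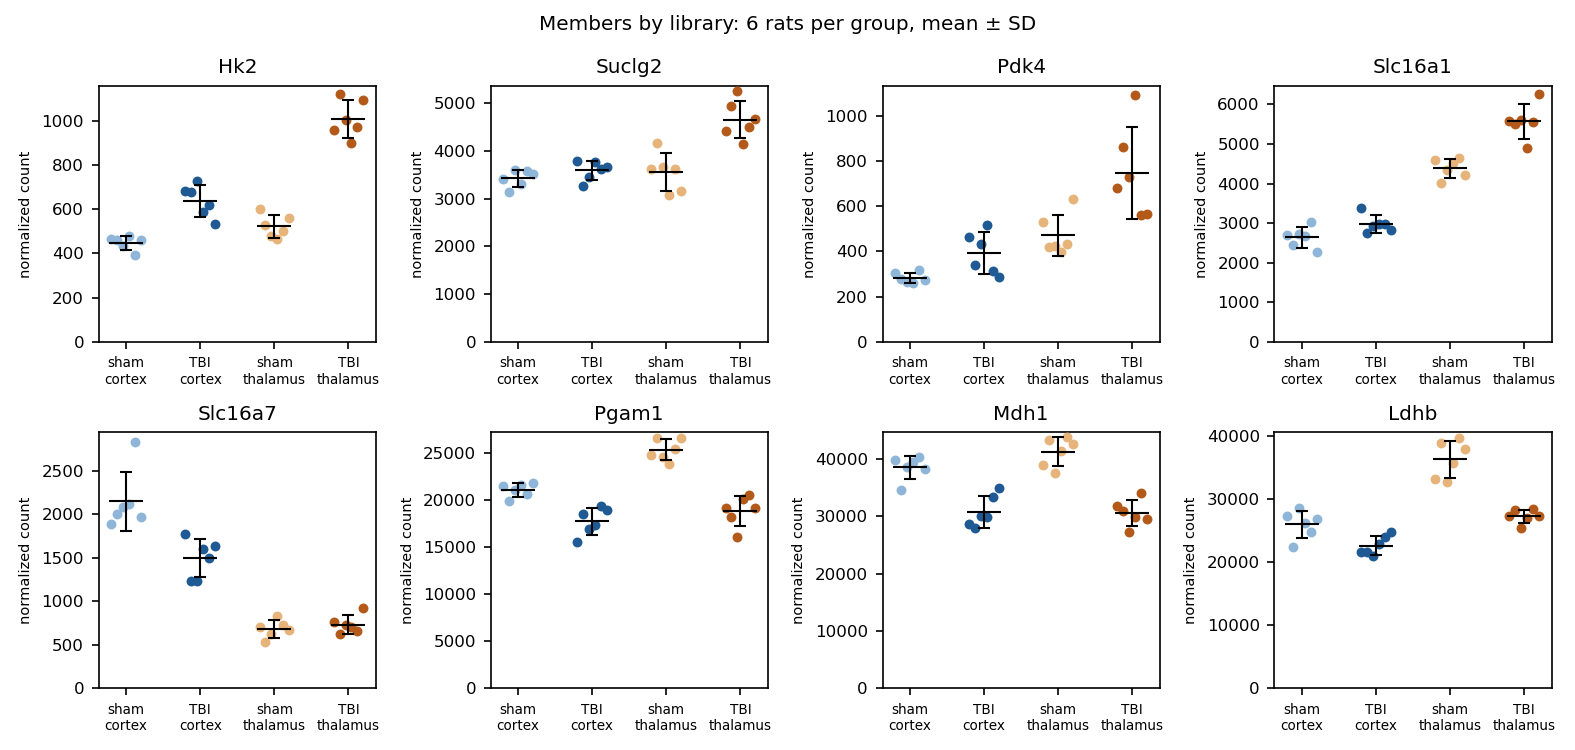
Normalized counts (y axis, from 0) of 8 members in each of the 24 libraries, by group (x axis). Points are rats, 6 per group, and bars are means with SD. In the TBI thalamus Hk2 lies between 900 and 1121, above every library of the other groups, and the median of Slc16a7 in the cortex is 2041 in sham and 1550 in TBI rats.

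The 4 members of the pyruvate dehydrogenase complex were all lower in both regions. Lower calls made up 14.9% (cortex) and 20.9% (thalamus) of everything tested. Where the mean was at least 1000, they made up 25.5% and 34%. All 4 members were that abundant, with means over the 24 libraries from 3900 (Dlat) to 10552 (Pdha1). Pdhx, a further subunit that is no member and is named here after its values were seen, fell by 0.17 (adjusted p = 0.0285) and 0.30 (adjusted p = 0.000216). Dlat, the acetyltransferase core, had 3995 to 4323 (4113) in sham and 3223 to 3888 (3436) in TBI cortex, and 3916 to 5050 (4547) in sham and 3201 to 3671 (3437) in TBI thalamus. Pdhb, the beta subunit of the decarboxylase, had 4804 to 5108 (5004) in sham and 3785 to 4569 (4087) in TBI cortex, and 5602 to 6187 (5952) in sham and 4494 to 5072 (4709) in TBI thalamus. Both genes had groups apart in both regions. Dlat fell by 0.26 ± 0.05 (adjusted p = 0.00136) and 0.39 ± 0.06 (adjusted p = 0.000342), and Pdhb by 0.27 ± 0.05 (adjusted p = 0.00127) and 0.32 ± 0.04 (adjusted p = 8.04e-05). The alpha subunit Pdha1 fell by 0.32 and 0.23 (the latter not called with upper quartile scaling), and the dihydrolipoyl dehydrogenase Dld, which other complexes share, by 0.29 and 0.26. Without the libraries high in choroid plexus, Pdha1 (adjusted p = 0.0509) and Dld (0.10) were not called in the cortex, with log2 fold changes of -0.32 and -0.29.

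Of the 3 member kinases that switch off this complex, Pdk4 was called higher in both regions and Pdk1 lower in the cortex. They were not tested against one another. A further kinase, Pdk3, is no member and is counted with the genes of pyruvate entry below. Pdk4, the isoform raised by fasting and fatty acids, had 261 to 318 (276) in sham and 286 to 518 (387) in TBI cortex, and 399 to 631 (427) in sham and 560 to 1091 (705) in TBI thalamus. Its groups overlapped in both regions and the TBI values were widely spread. It was 1.35-fold higher in the cortex (0.44 ± 0.13, adjusted p = 0.0208) and 1.56-fold higher in the thalamus (0.64 ± 0.16, adjusted p = 0.00643). The cortex call was lost without TBI rat 22 (0.38, adjusted p = 0.0505) and without the libraries high in choroid plexus (0.41, adjusted p = 0.115). Pdk1 was lower in the cortex (-0.16 ± 0.06, adjusted p = 0.0425), a call lost on leaving out any of 9 libraries (sham rats 26, 34, 38 and 50 and TBI rats 22, 24, 45, 52 and 56, adjusted p up to 0.0930), with TMM, upper quartile scaling and edgeR, with no filter on low values, and without the libraries high in choroid plexus. In the thalamus Pdk1 had -0.12 ± 0.05 (adjusted p = 0.103, or 0.0321 without sham rat 55), and Pdk2 was called in neither region (0.12, adjusted p = 0.0775, and -0.08, adjusted p = 0.190). Pdk2 was called higher in the cortex with upper quartile scaling (0.18, adjusted p = 0.00923) and without sham rat 55 or TBI rat 22 (0.0310 and 0.0472).

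In the citric acid cycle, 6 of 11 members were lower in the cortex and 9 in the thalamus. The shares were 14.9% and 20.9% over all loci, and 25.5% and 34% of loci with a mean of at least 1000. Mdh1, the cytosolic malate dehydrogenase of the malate-aspartate shuttle, had 34587 to 40338 (38942) in sham and 27864 to 34968 (29894) in TBI cortex. It had 37491 to 43724 (42007) in sham and 27268 to 33989 (30390) in TBI thalamus. The cortex groups overlapped by 1 sham and 1 TBI library, the thalamus groups were apart, and Mdh1 fell by 0.33 ± 0.06 (adjusted p = 0.00110) and 0.43 ± 0.06 (adjusted p = 0.000111). Mdh2, the mitochondrial enzyme, fell by 0.15 (adjusted p = 0.0212, or 0.119 with upper quartile scaling) and 0.34 (adjusted p = 0.000197). Idh3a, the catalytic subunit of NAD-dependent isocitrate dehydrogenase, had 9446 to 10277 (9891) in sham and 7363 to 9524 (7742) in TBI cortex, and 10662 to 13370 (11344) in sham and 8479 to 9347 (8819) in TBI thalamus. It fell by 0.30 ± 0.06 (adjusted p = 0.00216) and 0.38 ± 0.06 (adjusted p = 0.000175), with overlap in the cortex only. Its regulatory partner Idh3B, matched by a spelling that differs in letter case, fell by 0.24 and 0.38 with no overlap in either region. The third subunit Idh3g was not called in the cortex (-0.07, adjusted p = 0.257) and fell in the thalamus (-0.21, adjusted p = 0.0247). That thalamus call was lost without sham rat 32, sham rat 50 or TBI rat 63 (adjusted p = 0.0512, 0.0504 and 0.0521), with TMM, upper quartile scaling and edgeR, and without the libraries high in choroid plexus.

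Idh2, the NADP-dependent mitochondrial isocitrate dehydrogenase, ran the other way from Idh3a. It had 2811 to 3017 (2907) in sham and 3039 to 3180 (3097) in TBI cortex, a gap with no overlap, but was not called (0.09 ± 0.04, adjusted p = 0.0713). In the thalamus it had 2686 to 3425 (3036) in sham and 2996 to 4458 (3269) in TBI rats and was not called (0.18 ± 0.09, adjusted p = 0.136). It was called higher in the cortex with upper quartile scaling (0.16, adjusted p = 0.0139) and in the thalamus with all 24 libraries in 1 fit (0.0442). Cs, citrate synthase, fell by 0.15 in the cortex (adjusted p = 0.0264) and 0.23 in the thalamus (adjusted p = 0.00360). The cortex call of Cs was lost without any 1 of sham rats 26, 34 and 38 and TBI rats 22, 45 and 52 (adjusted p up to 0.0632), with upper quartile scaling and without the libraries high in choroid plexus. Of the 2-oxoglutarate dehydrogenase complex, Dlst fell by 0.19 and 0.32 with no overlap in either region, and Ogdh had -0.08 (not called) and -0.18 (adjusted p = 0.0111, lost with TMM, upper quartile scaling and edgeR). Without the libraries high in choroid plexus, Dlst and Mdh2 were not called in the cortex (adjusted p = 0.0515 and 0.140).

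Succinyl-CoA ligase makes ATP with the subunit Sucla2 or GTP with Suclg2, each joined to the shared Suclg1. Suclg2 had 3142 to 3613 (3469) in sham and 3261 to 3799 (3646) in TBI cortex, and 3082 to 4169 (3622) in sham and 4141 to 5255 (4592) in TBI thalamus. Sucla2 had 7124 to 8349 (7543) in sham and 5128 to 7384 (5969) in TBI cortex, and 8050 to 9037 (8910) in sham and 6520 to 7096 (6881) in TBI thalamus. Suclg2 was higher in the thalamus (0.39 ± 0.08, adjusted p = 0.00112), where its groups overlapped by 1 library each, and was not called in the cortex (0.07 ± 0.05, adjusted p = 0.332). Sucla2 was lower in both regions (-0.33 ± 0.07, adjusted p = 0.00327, and -0.34 ± 0.04, adjusted p = 3.54e-05), with no overlap in the thalamus. Suclg1 had -0.11 in the cortex (not called) and -0.19 in the thalamus (adjusted p = 0.0133, lost with TMM, upper quartile scaling and edgeR). Other enzymes feed or drain the cycle from the side. Malic enzyme 1 (Me1) fell by 0.22 in the cortex (adjusted p = 0.0173), not with upper quartile scaling or without the libraries high in choroid plexus (adjusted p = 0.0741), and was not called in the thalamus (-0.06, adjusted p = 0.366). Pyruvate carboxylase, listed as Pc, the astrocyte enzyme that refills the cycle, was not called in the cortex (-0.07, adjusted p = 0.256) and fell in the thalamus (-0.28, adjusted p = 0.000647).

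Levels of different isozymes cannot be compared with one another here, because fragment counts depend on transcript length and no lengths were given. The ratio of 2 isozymes within a library can be compared between groups and does not depend on scaling between libraries. For 8 pairs the mean log2 ratio of TBI and sham rats was compared by exact permutation tests, two-sided, over 6 against 6 rats. The regions of sham rats were compared likewise over 6 thalamus and 6 cortex libraries, unpaired, although these come from the same 6 rats, and p-values were adjusted over the 32 tests. The smallest p that these tests can give is 0.00216.

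Hk2/Hk1 had ratios of 0.0278 to 0.0310 (median 0.0290) in sham and 0.0364 to 0.0513 (0.0419) in TBI cortex. It had 0.0353 to 0.0471 (0.0378) in sham and 0.0695 to 0.0966 (0.0824) in TBI thalamus. Groups were apart in both regions, and the ratio was 1.5-fold higher in the cortex and 2.14-fold higher in the thalamus (log2 differences 0.58 ± 0.08 and 1.10 ± 0.10 SE, exact permutation adjusted p = 0.00630 for each). Suclg2/Sucla2 had ratios of 0.429 to 0.494 (0.432) in sham and 0.496 to 0.646 (0.608) in TBI cortex, and 0.341 to 0.469 (0.420) in sham and 0.598 to 0.806 (0.665) in TBI thalamus. The groups were again apart in both regions, at 1.32-fold and 1.67-fold (0.40 ± 0.07 and 0.74 ± 0.10, exact permutation adjusted p = 0.00630 for each). In the cortex that shift came with a fall of Sucla2 and no call for Suclg2, and in the thalamus both members were called, in opposite directions.

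Slc16a1/Slc16a7 had ratios of 1.08 to 1.43 (1.25) in sham and 1.72 to 2.36 (1.95) in TBI cortex, and 5.47 to 7.61 (6.41) in sham and 6.78 to 8.78 (7.50) in TBI thalamus. It was 1.61-fold higher with no overlap in the cortex (0.69 ± 0.09, exact permutation adjusted p = 0.00630) and 1.18-fold higher with overlap in the thalamus (0.24 ± 0.09, adjusted p = 0.0378). Eno1/Eno2 had ratios of 0.547 to 0.656 (0.591) in sham and 0.60 to 0.744 (0.668) in TBI cortex, and 0.60 to 0.916 (0.838) in sham and 0.897 to 1.10 (0.980) in TBI thalamus. Both regions overlapped, and the ratio was higher by 0.16 ± 0.06 in the cortex (exact permutation adjusted p = 0.0482) and 0.28 ± 0.10 in the thalamus (adjusted p = 0.0130).

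Aldoc/Aldoa and Ldha/Ldhb were called in the thalamus and not in the cortex. Aldoc/Aldoa had ratios of 0.801 to 0.949 (0.872) in sham and 0.942 to 1.10 (1.05) in TBI thalamus, higher by 0.24 ± 0.05 (exact permutation adjusted p = 0.0107), against -0.07 ± 0.06 in the cortex (adjusted p = 0.300). Ldha/Ldhb had ratios of 0.0980 to 0.130 (0.111) in sham and 0.124 to 0.151 (0.130) in TBI thalamus, higher by 0.25 ± 0.09 (exact permutation adjusted p = 0.0378), against 0.02 ± 0.09 in the cortex (adjusted p = 0.810). Of the phosphofructokinases, Pfkl/Pfkm was higher in the cortex (0.38 ± 0.13, exact permutation adjusted p = 0.0292) and not called in the thalamus (0.14 ± 0.12, adjusted p = 0.307). Pfkp/Pfkm was higher in the thalamus (0.14 ± 0.03, exact permutation adjusted p = 0.0107) and not called in the cortex (-0.08 ± 0.04, adjusted p = 0.127). In all, 5 of 8 pairs passed in the cortex and 7 of 8 in the thalamus, each with a higher ratio of the first-named isozyme. The order within a pair follows no stated rule, and the lists were chosen with earlier results of these data known. A shared direction of the pairs is therefore no result of its own. Ratios of other genes were not computed, so no share over other pairs stands beside these counts. Both phosphofructokinase pairs share the denominator Pfkm. Of the first-named isozymes that passed in the thalamus, Hk2, Suclg2 and Slc16a1 had positive log2 fold changes there. Pfkp, Aldoc, Eno1 and Ldha had negative ones.

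**Figure D3:**
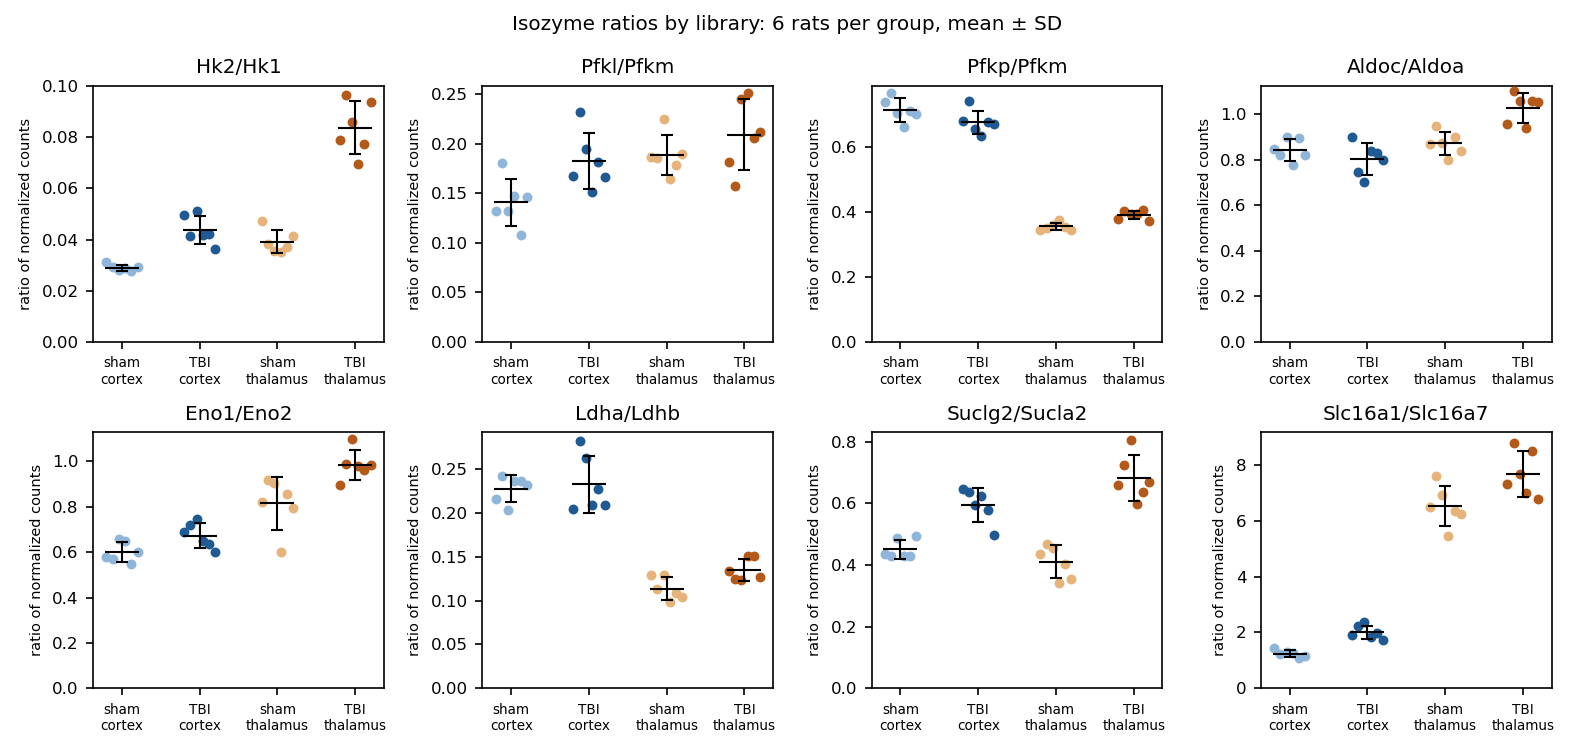
Ratio of normalized counts (y axis, from 0) for 8 isozyme pairs in each library, by group (x axis). Points are rats, 6 per group, and bars are means with SD. Hk2/Hk1 and Suclg2/Sucla2 are apart between sham and TBI in both regions, at medians of 0.0290 and 0.0419, and of 0.432 and 0.608, in the cortex.

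Without the 6 libraries high in choroid plexus, all 12 of these ratio differences kept their direction. With 5 against 4 rats the smallest exact p is 0.0159 before adjustment, so the lack of an adjusted p under 0.05 there says little. Hk2/Hk1 was then higher by 0.55 and 1.04 and Suclg2/Sucla2 by 0.41 and 0.73 in cortex and thalamus, and Slc16a1/Slc16a7 by 0.71 in the cortex. Leaving out single libraries ended the cortex calls of Eno1/Eno2 in 8 of 12 cases and of Pfkl/Pfkm in 3, and the thalamus calls of Ldha/Ldhb in 7 and Slc16a1/Slc16a7 in 8.

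The effect of TBI was compared between the regions by an interaction over all 24 libraries. Of 37 members, 3 were called more positive in the thalamus and 0 more negative, against 2.72% and 4.54% of 15678 loci. Hk2 differed by 0.44 ± 0.11 (adjusted p = 0.0150), Slc16a7 by 0.62 ± 0.16 (adjusted p = 0.0178) and Suclg2 by 0.33 ± 0.09 (adjusted p = 0.0309). Hk2 was higher in both regions, Slc16a7 was called in the cortex and Suclg2 in the thalamus. With the rat as block, which ties both regions of an animal together, Hk2 (adjusted p = 0.0180) and Slc16a7 (0.00554) were called and Suclg2 was not (0.0627). Suclg2 also lost its call on leaving out any 1 of 8 rats (sham rats 26, 34, 38, 50 and 55 and TBI rats 24, 45 and 56, adjusted p up to 0.0992). Without the libraries high in choroid plexus none of the 3 passed, with differences of 0.44 for Hk2 (adjusted p = 0.0890), 0.62 for Slc16a7 (0.0957) and 0.28 for Suclg2 (0.201). Among all called loci the share more negative in the thalamus was 62.5%, and 48.1% with edgeR, which called the same number of members.

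Isozyme ratios were compared in the same way, as the within-rat difference between regions. The shift of Hk2/Hk1 was larger in the thalamus by 0.51 ± 0.13, and that of Slc16a1/Slc16a7 smaller, by -0.45 ± 0.10 (exact permutation adjusted p = 0.00630 for each). In both cases the 6 TBI and 6 sham rats did not overlap. Pfkp/Pfkm (0.22 ± 0.05, adjusted p = 0.0154), Aldoc/Aldoa (0.31 ± 0.09, adjusted p = 0.0130) and Suclg2/Sucla2 (0.34 ± 0.12, adjusted p = 0.0312) had a more positive shift in the thalamus by the exact permutation test. For Pfkp/Pfkm and Aldoc/Aldoa the cortex shift was negative and not called. Pfkl/Pfkm, Eno1/Eno2 and Ldha/Ldhb were not shown to differ between regions, with -0.24 ± 0.21, 0.12 ± 0.13 and 0.23 ± 0.16. The call of Suclg2/Sucla2 was lost on leaving out any 1 of sham rats 38, 50 and 55 and TBI rats 45, 56 and 63 (adjusted p up to 0.0660).

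Sham rats show how the regions differ without injury. Of 37 members, 23 were higher in the thalamus than in the cortex and 5 lower, against 33.9% and 28.3% of 15582 loci, and with TMM or edgeR 20 were higher and 5 lower. The count was 21 higher and 5 lower without the libraries high in choroid plexus, against 4356 and 3712 of 15553 loci. The members lower in the thalamus were Slc16a7 (-1.65 ± 0.11, adjusted p = 1.92e-09), Pdk1 (-0.95 ± 0.06), Pfkp (-0.69 ± 0.04), Ldha (-0.53 ± 0.06) and Hk1 (-0.20 ± 0.04), all with no overlap. The largest rises were those of Me1 (0.75 ± 0.05), Pfkl (0.75 ± 0.09), Slc16a1 (0.73 ± 0.06), Pdk4 (0.71 ± 0.11) and Eno1 (0.59 ± 0.06), also with no overlap. Oligodendrocyte markers were higher in sham thalamus in 7 of 7 cases, with log2 fold changes of 1.07 to 1.66. Of the other markers there, 6 of 10 microglial ones were higher and 0 lower, 5 of 7 endothelial ones were lower and 0 higher, 4 of 12 neuronal ones were higher and 6 lower, and 4 of 9 astrocyte ones were higher and 3 lower. The part of these cell types in the differences between regions was not tested.

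**Figure D4:**
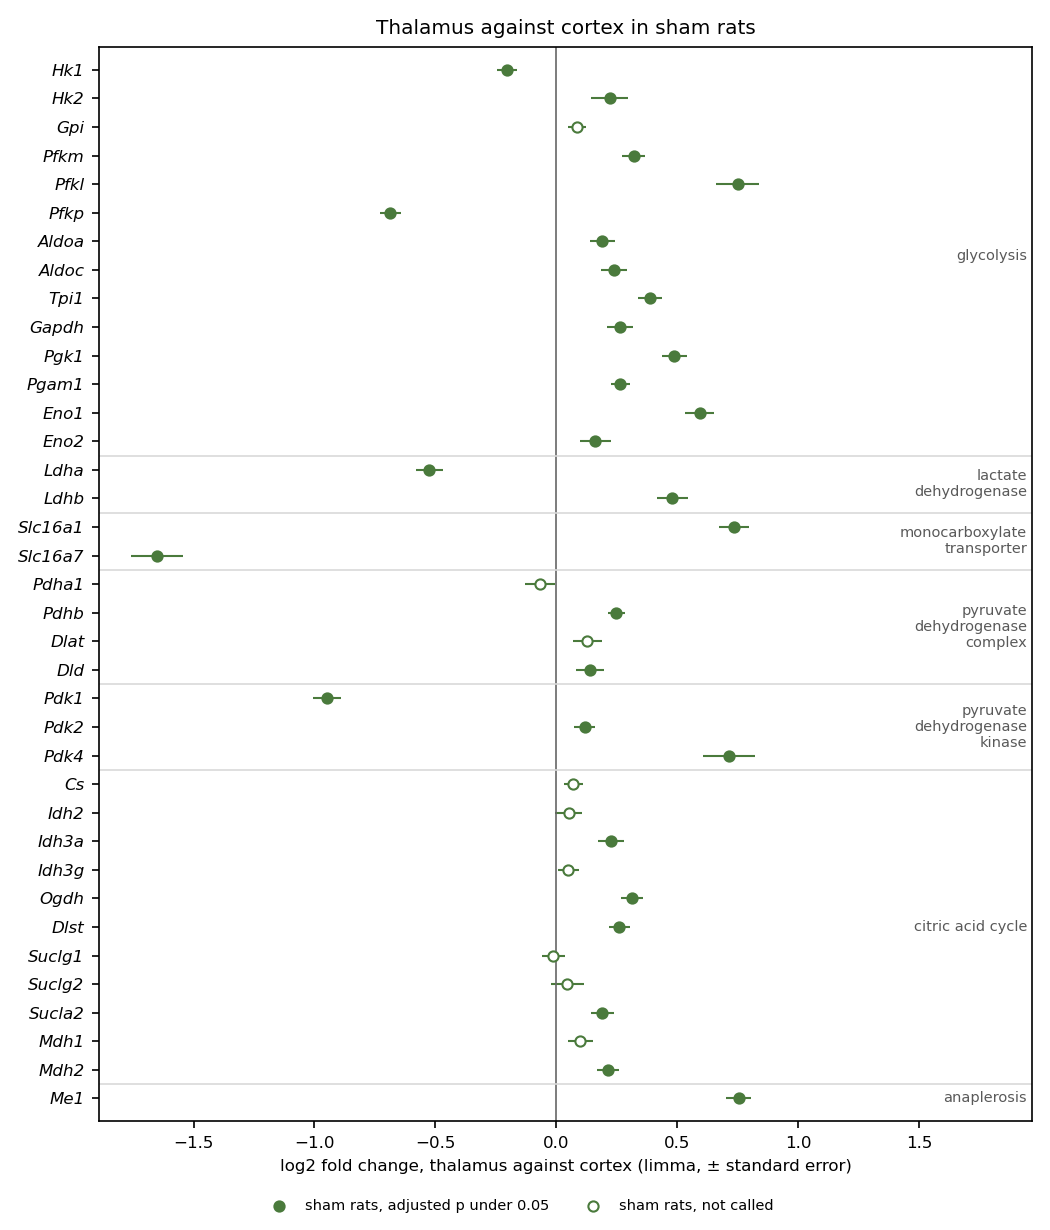
Log2 fold change of thalamus against cortex in the 12 libraries of sham rats (x axis) for 37 members ordered by role (y axis). Lines are standard errors from limma and filled points had an adjusted p under 0.05. Slc16a7 lies furthest left at -1.65, and Me1 and Pfkl furthest right at 0.75.

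Of the 8 ratios, 6 passed the unpaired test between the regions of sham rats. Slc16a1/Slc16a7 was 5.23-fold higher in the thalamus (2.39 ± 0.09), Pfkp/Pfkm 0.498 of the cortex value (-1.01 ± 0.03) and Ldha/Ldhb 0.498 (-1.01 ± 0.08), each with no overlap and an exact permutation adjusted p of 0.00630. Hk2/Hk1 (0.42 ± 0.07, adjusted p = 0.00630), Pfkl/Pfkm (0.43 ± 0.12, adjusted p = 0.0130) and Eno1/Eno2 (0.43 ± 0.10, adjusted p = 0.0154) were higher in the thalamus by the exact permutation test. Within rats, the exact sign-flip test cannot go below p = 0.0312, and its adjusted p was 0.05 for 5 of these pairs and 0.0833 for Eno1/Eno2, so none passed with that block.

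Other genes of the same pathways were taken from a list of 89, of which 81 had a locus by that name. In the cortex 17 of 74 tested were lower and 11 higher, and in the thalamus 25 of 76 were lower and 10 higher, while over all loci 14.9% were lower and 14.3% higher in the former and 20.9% and 14.5% in the latter. The higher calls were about as frequent as over all loci. The lower calls were near the shares among loci with a mean of at least 1000, 25.5% in the cortex and 34% in the thalamus. Most genes of the list had a mean at that level. Over the genes tested, the median log2 fold change was -0.03 in the cortex and -0.06 in the thalamus. Of 7 genes of pyruvate entry, 4 were lower in the cortex and 5 in the thalamus, and 0 were higher. Pdp1, the phosphatase that reactivates pyruvate dehydrogenase, fell by 0.49 and 0.58, among the 4 largest falls of the list in both regions. Got1, the cytosolic aspartate aminotransferase of the malate-aspartate shuttle, fell by 0.36 and 0.54. Ppargc1a, a coactivator of mitochondrial genes, fell by 0.37 and 0.70. Esrra, an oestrogen-related receptor, fell by 0.73 in the thalamus, against -0.07 in the cortex (adjusted p = 0.630).

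Among the largest rises on that list were those of transporters and regulators. Slc2a5, a hexose transporter known from microglia, rose by 0.52 in the cortex and 1.08 in the thalamus. Slc2a4, the insulin-responsive glucose transporter, rose by 0.64 and 0.75, and Myc, a transcription factor that drives glycolytic genes, by 0.60 and 0.77. Pfkfb3, which makes the activator of phosphofructokinase, rose by 0.45 in the thalamus and was not called in the cortex (-0.04, adjusted p = 0.712). The effect of TBI was more positive in the thalamus for 3 of 77 genes of the list tested (2.72% of all loci), Slc2a5 (0.56), Pfkfb3 (0.49) and glutamine synthetase Glul (0.32). It was more negative for 5 of 77 (4.54% of all loci), Slc2a8, Pygl, G6pc3, Egln3 and Esrra, by -0.33 to -0.66. Among these, Pygl is a glycogen phosphorylase, G6pc3 a glucose 6-phosphatase and Egln3 an oxygen-sensing hydroxylase.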

How the data were processed

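Polyadenylated RNA from 24 libraries (6 TBI and 6 sham rats, both regions of each) was sequenced on stranded libraries. Per the labels and the study's methods, the authors aligned reads with TopHat2 2.0.11 and Bowtie2 2.2.2 and quantified 42334 loci with Cufflinks 2.2.1 and Cuffdiff; the submitters' notes name the build Rnor_5.0, while the study's methods name RGSC3.4 for the alignment, so the build of the listed coordinates is not settled. The deposited signal values are fragment counts divided by a library factor: 100% of low values were whole fragments within 0.1. The 15693 loci without a name (1.90% to 2.23% of counts) were left out.

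Named loci with a mean of at least 10 were tested by limma 3.58.1 (R 4.3.3) on log2(value + 1), adjusted by Benjamini-Hochberg and called under 0.05. Isozyme ratios were tested by exact permutation (Python 3.11.15, scipy 1.17.1). The scripts were tested on simulated data. Alternatives were TMM and upper quartile scaling, other filters and pseudocounts, limma-voom, edgeR 4.0.16 on recovered fragments, a rat block and left-out libraries. All members are given, and of the other pathway genes the 4 largest rises and falls in each region, of which 2 genes are not reported here. The members and lists were chosen with earlier results of these data known. Regions were paired by the labels, which give the same rat for both. Deviations from group means correlated between the regions of a rat with a median of 0.187 (0.00393 to 0.569), over 0.1 in 10 of 12 rats. Depth ran from 30568927 to 54608922 fragments per library, and the 3-fragment floor was at most 3.76 normalized counts.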

Additional observations from a re-analysis of the deposited data

Results flagged for a closer look

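Of 184 groups of 6 values examined, 7 held 1 value far from the other 5, and chance gives this in about 1 in 20 groups. In the thalamus, Pfkm was lowest in TBI rat 45 at 21338 (others 24547 to 25906), the library with the most choroid plexus RNA, and Tpi1 was highest in sham rat 32 at 22398 (others 18721 to 19740). In the cortex, Slc16a1 was highest in TBI rat 22 at 3388 (others 2746 to 2984), Slc16a7 in sham rat 50 at 2824 (others 1889 to 2121) and Pdk2 in sham rat 55 at 7077 (others 6033 to 6422). Suclg1 and Mdh1 were lowest in the cortex of sham rat 32, at 4923 (others 5359 to 5590) and 34587 (others 38242 to 40338).

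The effect of TBI differed between thalamus and cortex by the interaction in limma for Hk2 (0.44), Slc16a7 (0.62) and Suclg2 (0.33), all on the log2 scale. By the exact permutation test it differed for the ratios Hk2/Hk1 (0.51), Pfkp/Pfkm (0.22), Aldoc/Aldoa (0.31), Suclg2/Sucla2 (0.34) and Slc16a1/Slc16a7 (-0.45). Without the libraries high in choroid plexus the 3 genes had differences of 0.44, 0.62 and 0.28, not called, and the 5 ratios 0.58, 0.19, 0.22, 0.38 and -0.41. For the ratios this leaves 5 TBI against 3 sham rats, whose smallest exact p of 0.0357 before adjustment leaves little room for a call.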

How the results depend on the processing

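With an adjusted p of 0.01, 1337 loci were higher and 1099 lower in the cortex, with 1 and 12 members, and 1405 higher and 2024 lower in the thalamus. With upper quartile scaling, 2900 loci were higher and 1248 lower in the cortex, with 6 members higher and 12 lower. In the thalamus 2988 loci were then higher and 1990 lower. Eno1 in the cortex (0.022) and Me1 in the thalamus (0.0087) changed sign. Without the libraries high in choroid plexus, 1223 loci were higher and 939 lower in the cortex, with 1 and 8 members, and the difference between regions was called for 194 and 228 loci and 0 members. This setting leaves fewer samples. Its log2 ratios in the cortex were 0.55 for Hk2/Hk1, 0.31 for Pfkl/Pfkm, 0.15 for Eno1/Eno2, -0.074 for Ldha/Ldhb (sign changed), 0.41 for Suclg2/Sucla2 and 0.71 for Slc16a1/Slc16a7. In the thalamus they were 1.04 for Hk2/Hk1, 0.14 for Pfkp/Pfkm, 0.24 for Aldoc/Aldoa, 0.31 for Eno1/Eno2, 0.31 for Ldha/Ldhb, 0.73 for Suclg2/Sucla2 and 0.25 for Slc16a1/Slc16a7. Between regions of sham rats they were 0.49 for Hk2/Hk1, 0.34 for Pfkl/Pfkm, -1.003 for Pfkp/Pfkm, 0.39 for Eno1/Eno2, -1.10 for Ldha/Ldhb and 2.44 for Slc16a1/Slc16a7, and as differences of the TBI effect 0.58 for Hk2/Hk1, 0.19 for Pfkp/Pfkm, 0.22 for Aldoc/Aldoa, 0.38 for Suclg2/Sucla2 and -0.41 for Slc16a1/Slc16a7. With the rat as replicate block, the sham ratios between regions were 0.42 for Hk2/Hk1, 0.43 for Pfkl/Pfkm, -1.01 for Pfkp/Pfkm, 0.43 for Eno1/Eno2, -1.01 for Ldha/Ldhb and 2.39 for Slc16a1/Slc16a7, none past the threshold. Of the member calls for the difference between regions, the block ended that of Suclg2.

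Leaving out 1 rat moved the loci called for the difference between regions to 274 to 421 higher and 405 to 783 lower, with the fewest without sham rat 50 and TBI rat 24, and the members called lower to 0 to 1. Leaving out 1 library or rat gave log2 ratio ranges of 0.30 to 0.45 for Pfkl/Pfkm, -0.105 to -0.058 for Pfkp/Pfkm, 0.134 to 0.196 for Eno1/Eno2 and -0.036 to 0.057 for Ldha/Ldhb in the cortex. The last changed sign without sham rat 34, TBI rat 24 or TBI rat 45. The ranges were 0.207 to 0.288 for Ldha/Ldhb and 0.19 to 0.284 for Slc16a1/Slc16a7 in the thalamus, 0.273 to 0.39 for Suclg2/Sucla2 as a difference of the TBI effect, and 0.38 to 0.54 for Eno1/Eno2 between regions of sham rats. The members lower in the cortex numbered 15 to 22 on leaving out 1 library, with 15 without sham rat 26 or TBI rat 45.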
